A study of Mus musculus and Bos taurus with 6 samples.

Results

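miR-132 and miR-212 are a pair of microRNAs (miRNA) cut from neighbouring hairpins of 1 primary transcript. Here the level of each of their 4 arms is described in lactating mammary glands of mouse and cow and in the RNA precipitated with AGO2 from the mouse gland. Their members were taken by name, as every quantified miRNA with a mouse or bovine prefix whose name without its arm is miR-132 or miR-212. The rule found 7 of the 3289 quantified miRNA, namely 4 of 1750 in the mouse and AGO2 libraries (mmu-miR-132-3p, mmu-miR-132-5p, mmu-miR-212-3p and mmu-miR-212-5p) and 3 of 1539 in the bovine libraries. The bovine members were bta-miR-132, which is the 3p arm, bta-miR-212, which is the 5p arm, and a 5p arm of miR-132 counted under its mouse name. The 3p arm of miR-212 was counted in bovine only under its human name. It is not a member by the rule and is given beside the others as the hsa-named arm.

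A miRNA hairpin is cut into a duplex of 2 arms, and 1 strand of that duplex is usually kept in an Argonaute protein such as AGO2, where its seed (bases 2 to 8) pairs with target mRNA. The other strand is mostly lost. miR-132 and miR-212 are best known from neurons, where the transcription factor CREB drives their transcript. In the mammary gland they were described as regulators of the outgrowth of the epithelial ducts, with their expression placed in the stroma, the connective tissue around the ducts.

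Small RNA was sequenced in 2 libraries per group. The mouse group was RNA of whole mammary glands of primiparous FVB/N mice at day 12 of lactation, the lymph node removed, without precipitation. The AGO2 group was RNA of glands of the same strain and day, recovered by co-immunoprecipitation with a monoclonal antibody to Argonaute 2 (EIF2C2). The methods name 2 mice for the gland collection and 2 animals for the AGO2 libraries, but no label ties a mouse library to an AGO2 library. The bovine group was RNA of mammary biopsies of multiparous Holstein cows at mid-lactation, each library a pool of 2 cows, on a hay diet with a forage-to-concentrate ratio of 46:54. All animals were lactating, so no virgin, pregnant or involuting gland enters any comparison. Mouse and AGO2 RNA were isolated with one kit and bovine RNA with another, so species, kit, parity, biopsy against whole gland, diet and pooling cannot be told apart.

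The counts summed to between 8391916 and 10613807 in the mouse and bovine libraries and to 3909166 and 5041406 in the AGO2 libraries. Levels are given as RPM, the reads of a miRNA per 1000000 reads of that sum. The exact Poisson 95% interval of a single library, where one is given, covers counting error only. The reads carry no molecular identifiers, so copies of 1 molecule could not be told apart and the interval may be too narrow. A count of 0 allowed a level of up to 3 counts, which came to between 0.283 and 0.357 RPM in mouse and bovine and between 0.595 and 0.767 RPM in AGO2. Epithelial marker miRNA (the miR-200 family, miR-205, miR-203 and miR-375) were counted in each group, at a summed 164152 and 190968 RPM in mouse, 339445 and 369329 RPM in AGO2 and, over 7 markers without miR-203, 79361 and 81656 RPM in bovine. With whole tissue, fewer cells of a type and less miRNA per cell cannot be told apart.

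The sequences show which of the 4 arms can share targets. They are written 5′ to 3′ with the seed in capitals, from RefSeq for GRCm38.p6, and are identical to those in the deposited mouse counts.
mmu-miR-132-3p: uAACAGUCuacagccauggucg
mmu-miR-212-3p: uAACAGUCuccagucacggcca
mmu-miR-132-5p: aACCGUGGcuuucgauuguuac
mmu-miR-212-5p: aCCUUGGCucuagacugcuuacu
The 2 arms on the 3p side had the same seed, AACAGUC, and no other quantified miRNA of either species carried it. Their first 9 bases were identical, and 17 of 22 positions in all. Counted from the 5′ end, with the base of miR-132-3p first, the 5 differences were A10C, C14U, U17C, U20C and G22A. The 5p arms had seeds of their own, ACCGUGG for miR-132-5p and CCUUGGC for miR-212-5p, which no other quantified miRNA carried. With their first bases aligned they matched at 9 of 22 ungapped positions. However, ACC opens miR-212-5p and starts at base 2 of miR-132-5p, and an alignment shifted by that base was not counted.

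bta-miR-132, bta-miR-212 and the bovine 5p arm of miR-132 had the same sequence as their mouse counterparts over their whole length. The hsa-named miR-212-3p of the bovine libraries lacked the last base of the mouse form and matched its first 21 bases. It is shown for that difference in length.
hsa-miR-212-3p: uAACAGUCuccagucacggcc

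Both hairpins lay on the plus strand of mouse chromosome 11 (GRCm38), Mir212 at chr11:75173388-75173478 and Mir132 at chr11:75173682-75173747, 203 bases apart. Both fell in the intron between exons 1 and 2 of the non-coding gene 1700016P03Rik (chr11:75172560-75177633), and none of its 3 exons overlapped them. The hairpins are printed to show the place of the arms, which are in capitals, 5p first.
Mir212: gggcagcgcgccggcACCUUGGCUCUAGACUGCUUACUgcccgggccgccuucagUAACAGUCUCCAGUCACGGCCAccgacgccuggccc
Mir132: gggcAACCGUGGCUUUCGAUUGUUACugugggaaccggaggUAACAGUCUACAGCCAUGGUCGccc
No position is given for the bovine hairpins, since no bovine genome was used here.

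miR-132-3p, the arm that is usually the guide strand, was the most abundant of the 4 in every library and lay close to 50 RPM in all 3 groups. It was counted 476 and 413 times in mouse samples 1 and 2 (51.2 and 49.2 RPM), 187 and 229 times in AGO2 samples 1 and 2 (47.8 and 45.4 RPM) and 503 and 477 times in bovine samples 1 and 2 (53.5 and 44.9 RPM). The group means were 50.2 ± 1.39 RPM in mouse, 46.6 ± 1.71 RPM in AGO2 and 49.2 ± 6.05 RPM in bovine (SD, n = 2). The bovine range spanned those of mouse and AGO2, and the Poisson intervals of the 2 AGO2 samples, 41.2 to 55.2 and 39.7 to 51.7 RPM, overlapped those of both mouse samples. By mean RPM it ranked 190 of 951 counted miRNA in mouse, 205 of 1454 in AGO2 and 200 of 1333 in bovine. Its neighbours in that order were miR-29b-1-5p at 51.3 RPM and miR-467d-5p at 49.5 RPM in mouse, miR-423-5p at 47.0 and miR-3105-5p at 46.3 RPM in AGO2, and bta-miR-181c at 49.3 RPM and a predicted miRNA at 48.1 RPM in bovine. These neighbours lay within the spread of miR-132-3p itself. The study treated 100 RPM as the level below which a miRNA was set aside, and miR-132-3p was below it in each of the 6 libraries, as were the 2 arms of the seed AACAGUC summed, at 45.7 to 54.5 RPM.

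miR-132-5p, the opposite strand of the same duplex, had the widest range of RPM among the members. It was counted 58 and 124 times in mouse (6.24 and 14.8 RPM), 87 and 152 times in AGO2 (22.3 and 30.2 RPM) and 69 and 74 times in bovine (7.34 and 6.97 RPM). Both AGO2 samples lay above both mouse samples, and both bovine samples lay between the mouse samples. Mouse samples 1 and 2 differed 2.37-fold in this arm, with Poisson intervals of 4.74 to 8.06 and 12.3 to 17.6 RPM that did not overlap, whereas they differed 1.04-fold in miR-132-3p. The means were 10.5 ± 6.04 RPM in mouse, 26.2 ± 5.58 RPM in AGO2 and 7.16 ± 0.259 RPM in bovine (SD, n = 2).

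miR-212-3p, which shares the seed of miR-132-3p, stood at or below 1.51 RPM throughout. It was counted 14 and 8 times in mouse (1.51 and 0.953 RPM) and 0 and 5 times in AGO2 (0 and 0.992 RPM), and the hsa-named arm 9 and 8 times in bovine (0.957 and 0.754 RPM). AGO2 sample 1, the shallowest library, had none, and the upper bound of its Poisson interval, 0.944 RPM, lay below both mouse values but within their intervals. The rate of AGO2 over mouse, with counts summed, was 0.449 with an exact 95% interval of 0.133 to 1.22, and that of bovine over mouse was 0.683 (0.341 to 1.35), so neither difference was detectable at this depth.

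miR-212-5p was the rarest arm. Its counts were 4 and 3 in mouse (0.430 and 0.357 RPM), 0 in both AGO2 samples and 0 and 4 in bovine (0 and 0.377 RPM). The summed counts of the AGO2 group allowed up to 0.412 RPM by the exact Poisson bound, beside 0.396 RPM in mouse, so no difference was detectable at this depth. Bovine over mouse was 0.505 (0.108 to 1.99). The order of the arms by group mean was the same in mouse, AGO2 and bovine, with miR-132-3p above miR-132-5p, then miR-212-3p and miR-212-5p. The Poisson intervals of miR-132-3p and miR-132-5p did not overlap in any sample, while those of the 2 miR-212 arms overlapped in every sample except bovine sample 1.

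**Figure D1:**
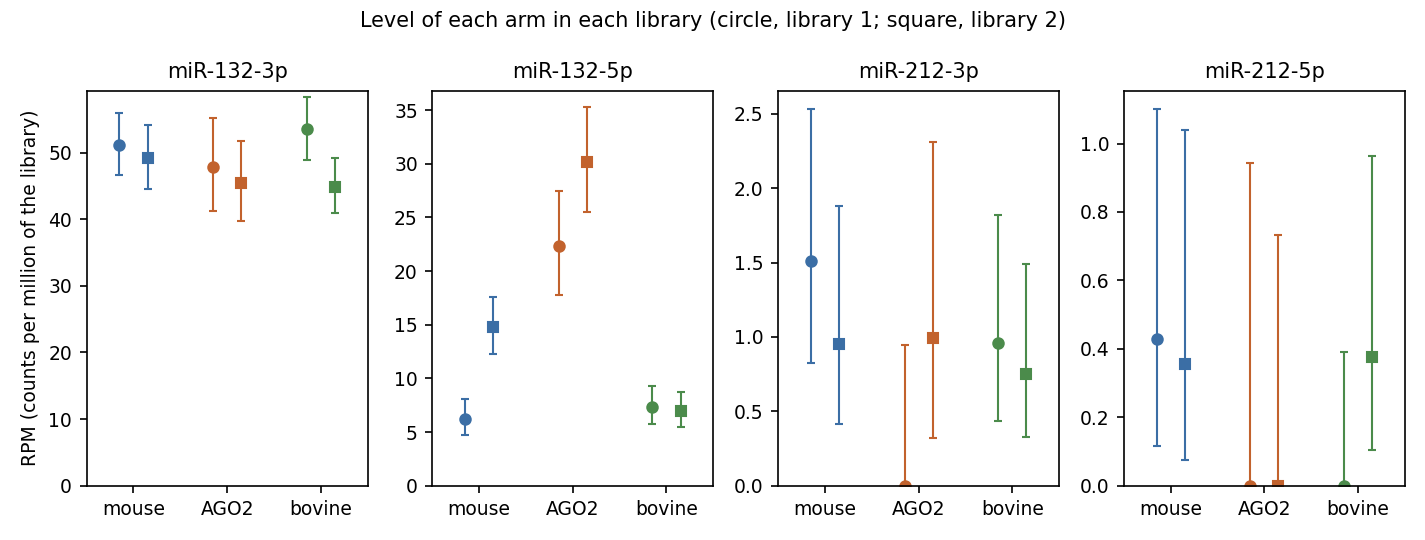
Level of each arm in RPM (vertical axis, a linear scale from 0 that differs between panels) in libraries 1 and 2 of the mouse, AGO2 and bovine groups, with exact Poisson 95% intervals. miR-132-3p lies between 44.9 and 53.5 RPM in every library, and miR-132-5p is higher in both AGO2 libraries (22.3 and 30.2 RPM) than in both mouse libraries (6.24 and 14.8 RPM).

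Counts of miR-132 exceeded those of miR-212 by far, although both hairpins lie on one transcript. With both arms added, miR-132 was counted 29.7 and 48.8 times as often as miR-212 in mouse and 63.6 and 45.9 times as often in bovine. In AGO2 the counts were 274 against 0 in sample 1 and 381 against 5 in sample 2. Over the summed counts of each group the ratio was 36.9 in mouse (95% interval 25.6 to 53.3), 53.5 in bovine (34.8 to 82.1) and 131 in AGO2 (55.8 to 308). These intervals, like those of the miR-212 rates above, pool the reads of 2 libraries and leave out the spread between libraries. The AGO2 ratio rests on 5 reads of miR-212, and the samples of mouse and bovine overlapped. The 4 arms together came to 59.4 and 65.3 RPM in mouse, 70.1 and 76.6 RPM in AGO2 and 61.8 and 53.0 RPM in bovine, the hsa-named arm included.

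The 5p arm of miR-132 made up a larger share of its counts in both AGO2 libraries than in both mouse whole-gland libraries. The 5p arm made up 10.9% (Wilson 95% interval 8.50 to 13.8) and 23.1% (19.7 to 26.8) of the miR-132 counts in mouse, 31.8% (26.5 to 37.5) and 39.9% (35.1 to 44.9) in AGO2, and 12.1% (9.64 to 15) and 13.4% (10.8 to 16.5) in bovine. The 3p arm remained the larger in each of the 6 libraries, by 8.21 and 3.33 times in mouse, 2.15 and 1.51 times in AGO2, and 7.29 and 6.45 times in bovine. The mean share was 17% ± 8.65 in mouse and 35.8% ± 5.76 in AGO2 (SD, n = 2), a difference of 18.8 percentage points, and the 2 groups did not overlap. The exact permutation test, two-sided, gave p = 0.333, which is the smallest p that 2 samples against 2 can give. Without mouse sample 1 the difference was 12.7 points and without mouse sample 2 it was 25 points. Bovine and mouse overlapped, with a mean difference of -4.23 points (exact permutation p = 1). For miR-212 the shares rested on at most 18 reads per library, and the 5p arm made up 22.2% and 27.3% in mouse, 0 of 5 reads in AGO2 sample 2, and 0 of 9 reads and 33.3% in bovine, with the hsa-named arm as 3p.

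**Figure D2:**
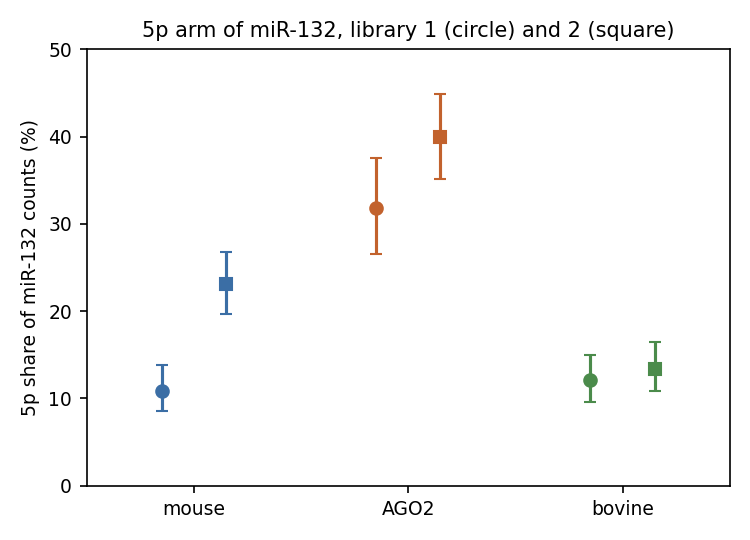
Share of miR-132 counts from the 5p arm (vertical axis, percent) in each library, with Wilson 95% intervals. Both AGO2 libraries (31.8% and 39.9%) lie above the mouse libraries (10.9% and 23.1%), and the bovine libraries (12.1% and 13.4%) lie between the mouse libraries.

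A share of 5p reads above both mouse samples was seen in other hairpins as well as miR-132. Of 199 mouse hairpins with both arms quantified and at least 50 counts over the mouse and AGO2 libraries, 41 (20.6%) had both AGO2 shares above both mouse shares, 71 had both below and 87 overlapped. The median difference was -0.274 points, and miR-132 ranked 12 of 199 from the highest. Among the 75 hairpins whose 3p arm was the larger in mouse, as in miR-132, 12 lay above, 27 lay below, and miR-132 ranked 9. Its spread between the mouse samples was also wide. The gap of 12.2 points was exceeded by 13 of the 199 hairpins, and the median gap was 0.460 points.

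**Figure D3:**
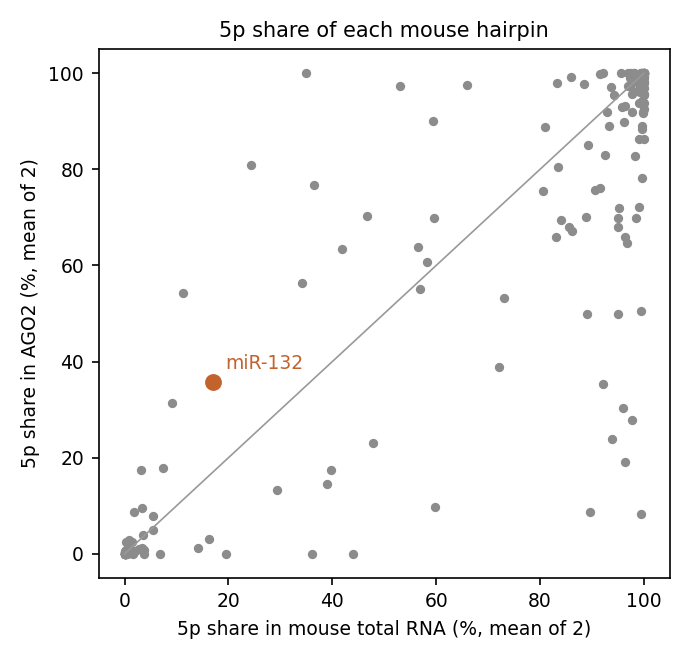
Mean 5p share of each of 199 mouse hairpins in mouse whole-gland RNA (horizontal axis, percent) and in AGO2 (vertical axis, percent), each the mean of 2 libraries, with the line of equal shares. miR-132, marked, lies above the line at 17% in mouse and 35.8% in AGO2, and other hairpins lie farther from it on either side.

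The comparison of AGO2 with whole-gland RNA addressed which miRNA were relatively more or less frequent in the AGO2 precipitates. No control precipitate without that antibody was sequenced, so RNA recovered without AGO2 was not measured. miR-132-3p did not pass the test, and miR-132-5p was higher in both AGO2 samples without passing it. In counts scaled by TMM, which equalises the bulk of the miRNA, miR-132-3p stood at 47.2 and 48.2 CPM (counts per 1000000, scaled) in mouse and 48.6 and 50.0 CPM in AGO2. The log2 fold change was 0.05 (SE 0.81, 95% interval -1.64 to 1.73, edgeR quasi-likelihood F test, adjusted p = 0.971). The SE is moderated over all miRNA and is wide beside the 2 pairs of values. The sign depended on scaling, since over library totals alone the value was -0.11. The test took in miRNA whose count exceeded the minimum of the study's methods in 1 library or more, which corresponds to 18.8 and 20.9 RPM in mouse, 44.8 and 34.7 RPM in AGO2 and 18.6 and 16.5 RPM in bovine. Of the 299 that did, 46 were higher and 37 lower in AGO2 (27.8% called).

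mmu-miR-132-5p did not reach that minimum in any library and was tested among the 501 miRNA with a count of at least 10 in at least 2 libraries, of which 43 were higher and 24 lower (13.4% called). Its scaled levels were 6.45 and 12.9 CPM in mouse and 22.1 and 33.9 CPM in AGO2, which did not overlap. The log2 fold change was 1.53 (SE 1.16, 95% interval -0.98 to 4.05), or 2.90-fold, with an adjusted p of 0.384 in edgeR. It was 0.91 without mouse sample 1, 1.09 without AGO2 sample 2 and 2.07 without mouse sample 2. Among the same 501 miRNA, 139 (27.7%) had RPM in both AGO2 samples above both mouse samples, so that this order of the samples alone was common. Both arms of miR-212 were too rare for either filter. When every quantified miRNA was tested, edgeR gave miR-212-3p a log2 fold change of -1.16 (adjusted p = 0.893).

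The comparison of bovine with mouse addressed which miRNA the 2 species share at a like level. miR-132-3p and miR-132-5p were both lower in bovine by the fitted values, and neither passed the test. Of 359 miRNA matched by name, 189 with identical sequence, 220 exceeded the same minimum count, and 64 were higher and 70 lower in bovine (60.9% called). With library totals alone the split was 79 higher and 53 lower. miR-132-3p stood at 70.4 and 73.8 CPM in mouse and 49.0 and 43.7 CPM in bovine after TMM scaling over the matched miRNA, with a log2 fold change of -0.64 (SE 0.33, 95% interval -1.47 to 0.19, edgeR, adjusted p = 0.146). Over library totals the log2 fold change was -0.03, the near equality seen in RPM. The median log2 fold change of all 220 miRNA moved in the same way, from -0.15 with TMM to 0.45 with library totals. In AGO2 against mouse the shift of the median was smaller, from -0.12 to -0.27. Without mouse sample 2, miR-132-3p was called lower in bovine (log2 fold change -0.58, edgeR, adjusted p = 0.0471).

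miR-132-5p was tested for bovine against mouse among the 297 matched miRNA with a count of at least 10 in at least 2 libraries, of which 88 were higher and 85 lower (58.2% called). Its scaled levels were 8.67 and 18.9 CPM in mouse and 7.16 and 7.34 CPM in bovine. In RPM both bovine samples lay between the mouse samples. The log2 fold change was -0.93 (SE 0.50, 95% interval -2.12 to 0.27, edgeR, adjusted p = 0.151). The value rested on which mouse sample was used. Without mouse sample 1 it was -1.45 (edgeR, adjusted p = 0.00378), and without mouse sample 2 it was -0.27 (edgeR, adjusted p = 0.433). With library totals alone it was -0.55.

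**Figure D4:**
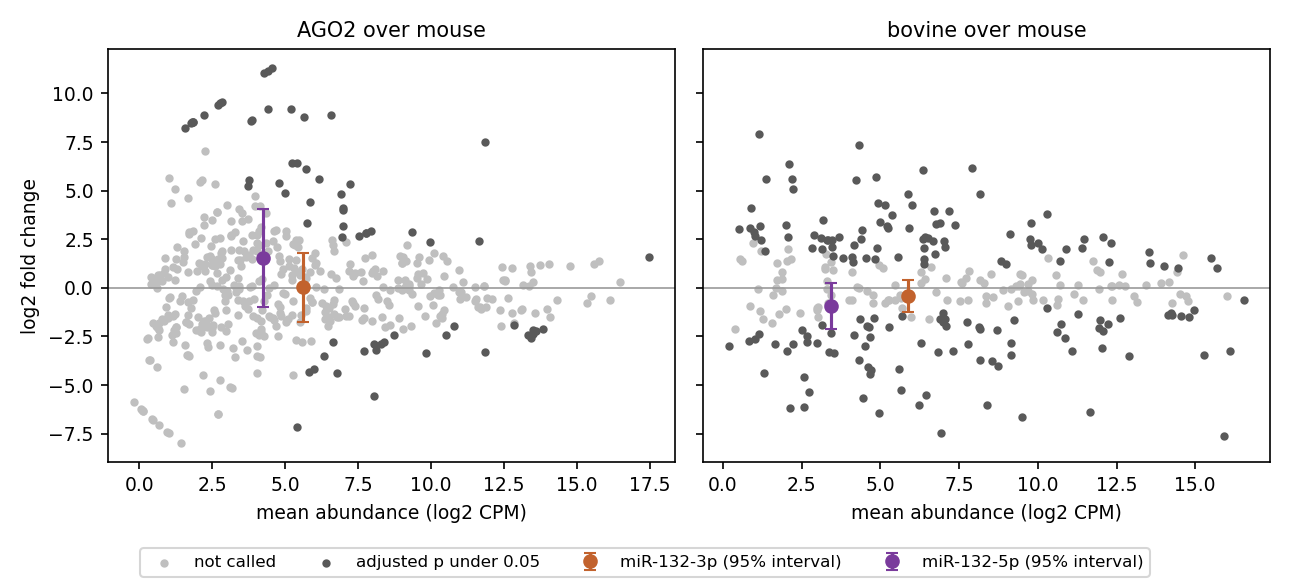
Log2 fold change of AGO2 over mouse (left, 501 miRNA) and bovine over mouse (right, 297 matched miRNA) against mean abundance in log2 CPM, with the filter of at least 10 counts in at least 2 libraries. Dark points have an adjusted p under 0.05 in edgeR, and the 95% intervals of miR-132-3p and miR-132-5p span 0 in both panels.

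Other miRNA described as regulators of mammary growth and function were set beside them. Of 7 such miRNA tested in AGO2 against mouse, where 27.8% of all miRNA were called, 1 was higher, miR-30b-5p (log2 fold change 2.30, SE 0.64, edgeR, adjusted p = 0.00976), and 1 lower, miR-200c-3p (-1.71, SE 0.57, edgeR, adjusted p = 0.0318). With library totals alone miR-200c-3p was not called. miR-200c-3p, a keeper of the epithelial state, was the most abundant of them. The median of the list was -0.03, beside -0.12 over all 299 miRNA tested. In bovine against mouse, where 60.9% of all matched miRNA were called, 5 were tested, of which miR-205-5p, a miRNA of basal epithelial cells, was higher (1.87, SE 0.31, edgeR, adjusted p = 0.00379). miR-30b-5p, miR-138-5p and miR-503-5p were lower, by log2 fold changes of -2.34, -2.25 and -3.04 (edgeR, adjusted p = 0.00377, 0.00387 and 0.00199). miR-200c-3p, again the most abundant, was not called (0.68, SE 0.56, edgeR, adjusted p = 0.326). The median of the list was -2.25, beside -0.15 over all 220. The 7 matched miRNA of the list summed to 28815 and 34600 RPM in bovine and 19212 and 6325 RPM in mouse. That sum is weighted to abundant members such as miR-200c-3p, which was not called, and the mouse samples lay far apart.

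Marker miRNA of cell types were read beside these values. Of all 299 miRNA tested in AGO2 against mouse, 131 had an unadjusted p under 0.05. DESeq2 called 69 higher and 48 lower, edgeR with DESeq2 size factors 57 and 35, and edgeR with library totals alone 38 and 35. In AGO2 against mouse, where 27.8% of all miRNA tested were called, 2 of 8 epithelial markers were higher (miR-200a-3p and miR-141-3p) and 3 lower (miR-200b-3p, miR-200c-3p and miR-375-3p). With library totals alone 2 were higher and 1 lower. The stromal list (miR-199, miR-214 and miR-10b), which marks the tissue where these miRNA were described, stood at 8165 and 10797 RPM in mouse and 11968 and 9755 RPM in AGO2. By edgeR with TMM 0 of its 5 tested members were called, with 2 at an unadjusted p under 0.05, while 2 were called higher by edgeR with DESeq2 size factors and by DESeq2. The smooth muscle and myoepithelial list (miR-143 and miR-145) stood lower in both AGO2 samples, at 32723 and 31395 RPM, than in mouse, at 51856 and 66279 RPM. Of its 3 tested members 0 passed in edgeR with TMM, 1 had an unadjusted p under 0.05, 1 was called lower with library totals alone, and 0 passed in DESeq2. The leukocyte list stood higher in both AGO2 samples, at 2351 and 2971 RPM, than in mouse, at 1263 and 2123 RPM. Of its 5 members 0 passed in edgeR with TMM, with 1 at an unadjusted p under 0.05, while edgeR with size factors called 1 higher and DESeq2 called 2. In the neural list 0 of 3 passed in any edgeR scaling or DESeq2 and 0 had an unadjusted p under 0.05. The most abundant members of these 4 lists, miR-10b-5p, miR-143-3p, miR-142-5p and miR-128-3p, had log2 fold changes of 0.40, -0.79, 1.26 and -0.63 (edgeR, adjusted p = 0.509, 0.0802, 0.126 and 0.448). Of 4 erythroid markers miR-144-3p was higher, and the summed level of that list, 13369 and 6522 RPM in mouse, was 32505 and 15557 RPM in AGO2. Of 2 skeletal muscle markers miR-1a-3p was lower, and the list stood at 163 and 213 RPM in mouse and 28.1 and 79.3 RPM in AGO2. Of 2 endothelial markers miR-126a-5p was higher and miR-126a-3p lower, the former not called with library totals alone, and the list stood at 24194 and 34265 RPM in mouse and 29280 and 28819 RPM in AGO2.

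The neural list is of interest because miR-132 is abundant in neurons. Its summed level was 165 and 241 RPM in mouse, 106 and 109 RPM in AGO2 and 295 and 243 RPM in bovine. In bovine against mouse, where 60.9% of the matched miRNA were called, 0 of 2 neural markers passed in edgeR or DESeq2, and 0 had an unadjusted p under 0.05. Of the stromal markers 1 of 5 was higher (miR-199b-5p). Of 7 epithelial markers 1 was higher and 4 were lower, of 5 leukocyte markers 2 were higher and 2 lower, and of 3 erythroid markers 2 were lower. In the smooth muscle and myoepithelial list 0 of 1 marker was called by edgeR or DESeq2, or had an unadjusted p under 0.05. With library totals alone 3 epithelial and 1 leukocyte markers were lower, where 79 of the 220 matched miRNA were higher and 53 lower. Of the same 220, 143 had an unadjusted p under 0.05 in edgeR with TMM. The endothelial markers could not be matched, since their names differ between the species, and the matched skeletal muscle markers did not exceed the minimum count. The lists were also summed over the rows of each species' own libraries. How often miRNA of any kind lay apart between bovine and mouse in RPM was not counted. The stromal list came to 17832 and 18416 RPM and the endothelial list to 62356 and 55972 RPM in bovine. The leukocyte list came to 2553 and 3285 RPM and the skeletal muscle list to 727 and 782 RPM. All of these stood above both mouse samples. The neural list nearly met, at 243 RPM in bovine sample 2 and 241 RPM in mouse sample 2, with 1 of its 5 bovine rows at 0. The epithelial and erythroid lists stood below both mouse samples, the latter at 1716 and 1102 RPM. The smooth muscle and myoepithelial list overlapped, at 71833 and 56990 RPM. The part of cell make-up in the levels of miR-132 and miR-212 was not tested.

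The miRNA whose levels over the 4 mouse and AGO2 libraries were most like those of miR-132-3p were sought by the Euclidean distance of log2 CPM centred on each miRNA. Over 298 miRNA the nearest was miR-27b-3p at a distance of 0.122, followed by miR-29a-5p at 0.248 and miR-148a-3p at 0.258, where the median distance was 1.76. They differed widely in abundance, at a mean of 10417, 116 and 92265 CPM. Their log2 fold changes of AGO2 over mouse, 0.09, -0.08 and 0.30, come from the same 4 libraries as the distance and are given as a description.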

How the data were processed

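Small RNA reads were, per the labels and the study's methods, from poly(A)-tailed libraries. Per the authors, reads between 17 and 28 nt long were assigned by the miRDeep2 quantifier to miRBase 20 precursors and predicted ones (GRCm38 and UMD3.1). The deposited counts per mature miRNA were used as they stand. The study notes that many rare reads of AGO2 sample 2 were discarded in these steps. The effect on miR-212 was not tested. The deposited lists of predicted miRNA hold no row of these miRNA and were not used.

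RPM were computed over the summed counts. edgeR 4.0.16 in R 4.3.3 was run with TMM, quasi-likelihood F tests and Benjamini-Hochberg adjustment over all tested miRNA, called at 0.05, on miRNA over the minimum count of the study's methods in any of the 4 libraries. Members below that were tested with a count of at least 10 in at least 2 libraries. The SE is the log2 fold change over the square root of F. Species were matched by name, with 229 bovine-prefixed rows and 130 under another prefix. The procedure was also run on simulated data with large changes in well-counted miRNA only, which says nothing of small changes or rare arms. Genome annotation was GENCODE M21. Library numbers follow accession order and pair nothing. The edgeR p-values rest on 2 libraries per group, with a spread moderated over all miRNA. In bovine each library is a pool of 2 cows, so the spread between single cows is not measured. Members, lists and tests were chosen with earlier results of these data known, and the mouse names of the endothelial markers were added after the files were seen. Named miRNA are the members, their neighbours in rank and likeness, and the most abundant of each list. Called members of the lists were named after their values were seen.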

Additional observations from a re-analysis of the deposited data

How the results depend on the processing

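The tests were repeated with DESeq2 1.42.0, with DESeq2 size factors, with unscaled totals, with other filters, bovine-prefixed rows only and each library left out in turn. Combinations with the filter of 10 counts, for miR-132-5p, were added after seeing the data. AGO2 over mouse of miR-132-3p was -0.11 with library totals and -0.11 with no filter, against 0.05, and 0.01 to 0.39 with a library left out. miRNA higher in AGO2 numbered 29 with no filter and 31 to 62 with a library left out, and those lower 24 with the filter of 10 counts and 21 to 33 with a library left out. In bovine, 29 to 85 were higher and 29 to 89 lower with a library left out, the fewest without bovine sample 1. miR-132-3p in bovine over mouse ran from -0.58 to -0.54 with a library left out, against -0.64 in the main fit. It was -0.03 with library totals and -0.43 with DESeq2 size factors, and it passed only without mouse sample 2. miR-132-5p in bovine over mouse ran from -1.45 to -0.27 with a library left out and passed only without mouse sample 1. AGO2 over mouse of miR-132-5p ran from 0.91 to 2.07, and no alternative run for that arm passed. The difference in 5p share was 19.5 points with summed counts and 12.7 to 25 points with a library left out, and the exact permutation test cannot give a p below 0.333. With a library left out, the lone sample of a group was assumed to vary like the other group. The cause of these changes was not tested. Of 76 alternative values of the main results, 65 kept their direction and their side of the threshold, or a count within 1.5 times. Part of that tally was fixed in advance, since 5p shares that do not overlap keep their sign when a library is left out. A member not called in the main fit counted as kept when it stayed uncalled with the same sign. No paired analysis was possible because the library numbers are in accession order. The miR-212 arms are limited by depth, at 0 to 14 counts per library.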
